A study of Homo sapiens with 6 samples.

Results

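The transcripts of 10 enzymes that activate, inactivate or release steroid hormones were followed in a human breast epithelial line and in its statin-resistant derivative. The genes were HSD17B1, HSD17B2, HSD17B4, HSD17B8, HSD17B11, HSD17B12, HSD11B2, SRD5A1, SRD5A3 and STS, out of 81496 gene symbols that have a probe set on the array. They were chosen by name as hydroxysteroid dehydrogenases, steroid reductases and steroid sulfatase, with earlier results of these data known. Each has 1 probe set, a group of short oligonucleotide probes summarised into 1 value, so no choice between probe sets was needed.

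MCF10.AT1 is a preneoplastic line of the MCF10A series that carries an activated HRAS oncogene, and the labels call it untreated and sensitive to fluvastatin, an inhibitor of HMG-CoA reductase. MCF10.AT1-R was selected from it in rising doses of fluvastatin from 1 to 20 µM, so every resistant array comes from this 1 selected line. The labels carry the same dosing text for both lines, and whether the drug was present at harvest is not given in the sources used here. Total RNA of each line was hybridised to 3 Clariom D arrays, which measure coding and noncoding transcripts, and the labels call the arrays of a line biological replicates. The comparison used MCF10.AT1 arrays A01 and A02 and MCF10.AT1-R arrays B02, B03 and B04. The line of an array was inferred here from the letter of its name. The remaining MCF10.AT1 array, A03, was removed by the study as an outlier and is described separately. All values are log2 expression after the RMA method, and a change is the MCF10.AT1-R mean minus the MCF10.AT1 mean on that scale.

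Hydroxysteroid dehydrogenases move a steroid between a keto form and a hydroxyl form, and one form usually binds a receptor much better than the other. HSD17B1 makes estradiol from estrone and HSD17B2 runs the reaction backwards. STS frees steroids from their sulfates, HSD11B2 turns cortisol into inactive cortisone, and SRD5A1 reduces testosterone to dihydrotestosterone. Several genes named for steroid chemistry do most of their work on lipids. HSD17B12 is the ketoacyl-CoA reductase of the fatty acid elongation cycle, HSD17B4 is the multifunctional enzyme of peroxisomal beta oxidation, HSD17B8 is part of the ketoacyl reductase of mitochondrial fatty acid synthesis, HSD17B11 sits on lipid droplets, and SRD5A3 takes part in making dolichol, the lipid carrier of N-glycans.

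The 5 arrays correlated with each other between 0.967 and 0.977 over all transcript probe sets. The 95th percentile of the negative control probe sets, taken here as the background level, lay between 2.88 and 3.14 on them. All 10 genes were above it on each of the 5 arrays, as were 11 of 22 other steroid hormone dehydrogenases and reductases. Both lines carried epithelial markers, with summed log2 levels of 8 basal mammary markers between 56.2 and 56.4 on the MCF10.AT1 arrays and between 69.7 and 70.2 on the MCF10.AT1-R arrays. Of those 8 markers, 5 rose, KRT17, KRT14, TP63 and KRT5 among them. Of 8 luminal markers 2 rose, KRT19 and KRT8, and the sums were 44.0 on both MCF10.AT1 arrays and 48.4 to 49.97 on those of MCF10.AT1-R. Of 7 cornifying keratinocyte markers 3 rose, IVL, CDSN and KRT1, with sums from 20.4 to 20.8 and from 25.9 to 28.2. Of 7 fibroblast markers 1 fell, DCN, with sums from 30.2 to 30.7 and from 27.6 to 28.7. Of 6 leukocyte markers 1 fell, CD14, with sums from 19.2 to 21.0 and from 19.9 to 21.4. The leukocyte marker PTPRC and the cornifying markers FLG and DSC1 were within the background on all 5 arrays, and LOR was above it on 1. The part of these shifts in the results below was not tested, and in RNA of whole cultures fewer cells of a kind and less RNA per cell cannot be told apart.

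None of the 10 genes passed the test between the lines. After filters on low and invariant probe sets, 6 of them were among the 51457 probe sets tested with limma at a false discovery rate (FDR) of 5%, and 4 varied too little to be tested. Over all tested probe sets 1.2% passed, 0.758% higher and 0.447% lower in MCF10.AT1-R, and the smallest change that passed was 1.07. The balance of directions depended on the scaling, since with arrays centred on their hybridization controls 308 probe sets passed and 79 of them were higher. Of the 10 genes 2 had an unadjusted limma p under 0.05, HSD17B12 (0.0064) and HSD17B1 (0.030). In this fit p follows the absolute size of the change, and 6.05% of all tested probe sets reached the size of HSD17B1. Of the 10 genes 1, HSD17B12, passed when limma was allowed to let the variance follow the mean level. The MCF10.AT1-R arrays were all above the MCF10.AT1 arrays for 3 genes, all below for 1, and mixed with them for 6. Such separation was frequent, at 23.3% of all transcript probe sets (12.2% above and 11.1% below) and 26.7% of those tested. With the deposited scaling, the interval of the change left no room for a 2-fold difference in either direction for 8 of the 10 genes. HSD17B12 and HSD17B1 were the exceptions. The 4 genes outside the filters take their intervals from a fit without filters. Centring on the hybridization controls put STS at -0.74 and HSD17B11 at -0.71, nearer to a 2-fold difference. Because limma used a common SD of 0.34 for all tested probe sets, the 95% interval of a tested gene reached 0.61 to each side.

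**Figure D1:**
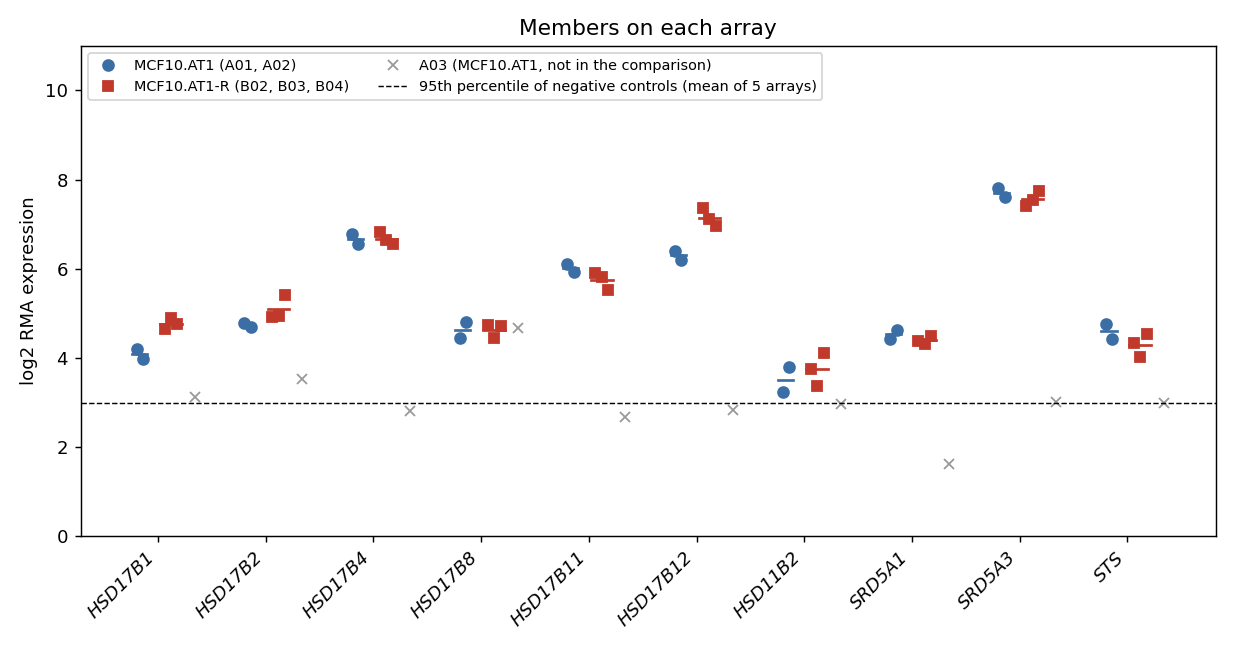
Log2 RMA expression (vertical axis) of the 10 enzymes (horizontal axis) on each array. Circles are A01 and A02 of MCF10.AT1, squares are B02, B03 and B04 of MCF10.AT1-R, short lines are group means, crosses are A03, and the dashed line is the mean background level of 2.99. HSD17B12 shows the widest gap between the lines, from 6.40 to 6.96.

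**Figure D2:**
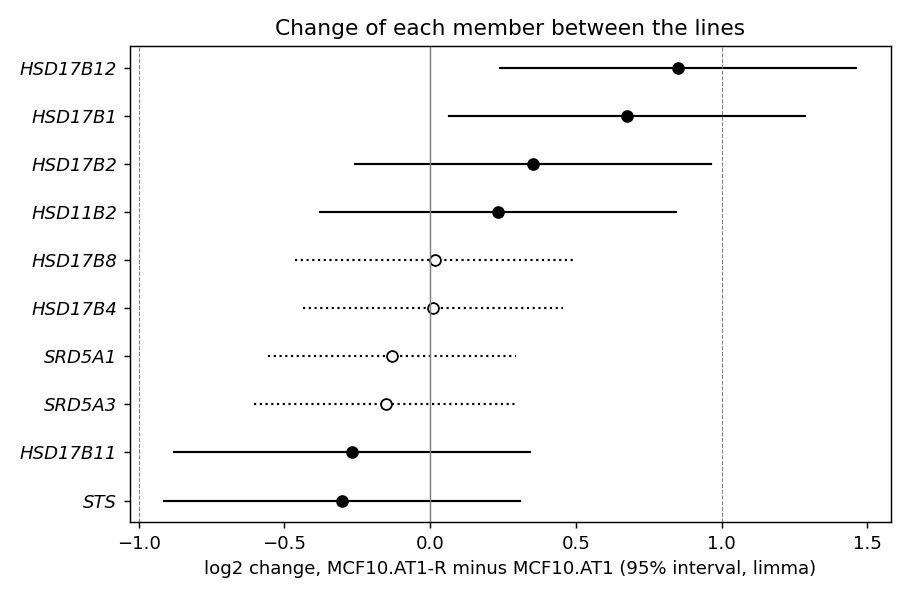
Change between the lines (horizontal axis, log2, MCF10.AT1-R minus MCF10.AT1) of each enzyme (vertical axis), with 95% intervals from limma. Filled points with solid lines were tested after the filters, open points with dotted lines take their values from a fit without filters, and dashed vertical lines mark a 2-fold difference. Only the intervals of HSD17B12 and HSD17B1 cross a dashed line.

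The estrogen-forming enzyme HSD17B1 was measured at 4.19 and 3.98 in MCF10.AT1 and at 4.64, 4.89 and 4.75 in MCF10.AT1-R. All resistant arrays were above both parental arrays, by at least 0.45. The means were 4.09 ± 0.15 (SD, n = 2) and 4.76 ± 0.13 (SD, n = 3), a change of 0.68 or 1.60-fold with a 95% interval from 0.065 to 1.29, and the limma adjusted p was 0.499. A neighbouring pseudogene copy, HSD17B1P1, had its own probe set at 4.07 and 3.92 in MCF10.AT1 and at 4.17, 4.55 and 4.48 in MCF10.AT1-R. It lay in the same order as HSD17B1, with a change of 0.41, an interval from -0.20 to 1.02 and a limma adjusted p of 0.807. Probes of a gene and a near-identical copy can bind each other's transcript, so the value of HSD17B1 is uncertain to that extent. An antisense gene, HSD17B1-AS1, also overlaps the locus in RefSeq.

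HSD17B2, which oxidises estradiol back to estrone, was measured at 4.79 and 4.68 in MCF10.AT1 and at 4.91, 4.95 and 5.40 in MCF10.AT1-R. The resistant arrays were again above the parental ones, by 0.12 at the nearest pair, and B04 stood higher than the other resistant arrays. The change was 0.35 with an interval from -0.26 to 0.96 and a limma adjusted p of 0.830. Forming and removing enzyme therefore had changes of one sign, neither past the test. Within each array the HSD17B1 value minus the HSD17B2 value had a mean of -0.65 over the parental and -0.32 over the resistant arrays. That difference of 0.32 had an exact two-sided permutation p of 0.3, where 2 arrays against 3 cannot give a p below 0.1. When each array was centred on its hybridization controls, which moved all genes together and the median transcript to -0.43, HSD17B2 was at -0.090 and HSD17B1 at 0.23.

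STS, the sulfatase that releases estrone and other steroids from their sulfates, was measured at 4.75 and 4.43 in MCF10.AT1 and at 4.32, 4.02 and 4.53 in MCF10.AT1-R. The lines overlapped, since B04 was above A02. The change was -0.30 with an interval from -0.91 to 0.31 and a limma adjusted p of 0.839. STS works against the sulfotransferases and needs the formylglycine-generating enzyme SUMF1, so a list of 12 genes of sulfation and sulfatase activation was set beside it. Of these 12 genes 9 were tested and 1 passed, SULT1E1, the estrogen sulfotransferase. SULT1E1 was measured at 4.34 and 4.37 in MCF10.AT1 and at 3.18, 2.16 and 2.60 in MCF10.AT1-R, and its change was -1.71 with a limma adjusted p of 1.36e-05. The resistant arrays were all lower and only B02 stayed above the background. With values raised to the background level the change was -1.30 and the limma adjusted p 0.0265. The call was lost with the low-expression filter alone (0.120) and with no filter (0.127). SUMF1 itself ranged from 2.74 to 4.08 in MCF10.AT1 and from 2.99 to 3.53 in MCF10.AT1-R. PAPSS1, which makes the sulfate donor, had a change of 0.82 with a limma adjusted p of 0.285. The median change of the list was 0.01, against -0.01 over all tested probe sets.

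The androgen-activating reductase SRD5A1 was measured at 4.43 and 4.61 in MCF10.AT1 and at 4.38, 4.32 and 4.48 in MCF10.AT1-R. The arrays overlapped, and the gene varied too little to enter the test. Its change without filters was -0.13, with an interval from -0.56 to 0.30. Receptor genes for female sex steroids were near or within the background in both lines. PGR was not above it on any of the 5 arrays, and ESR1 was above it on 2, with a change of -0.43 and a limma adjusted p of 0.795. None of 7 steroid receptor genes passed the test, of which 4 were tested, and the arrays of the lines overlapped for every one.

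SRD5A3 was measured at 7.80 and 7.62 in MCF10.AT1 and at 7.40, 7.53 and 7.74 in MCF10.AT1-R. The resistant arrays B02 and B03 lay below both parental arrays while B04 lay between them. The gene was outside the filter on invariant probe sets, and its change without filters was -0.15 with an interval from -0.60 to 0.30. RefSeq places SRD5A3-AS1 over the gene. Of 14 genes of dolichol and early N-glycan synthesis, 8 were tested and none passed, and the list's median change was -0.14. DPAGT1, which adds the first sugar to dolichol phosphate, had the lowest change, at -0.54 with a limma adjusted p of 0.692. DHDDS, a subunit of the synthase that builds the dolichol chain, was at 6.18 and 5.66 in MCF10.AT1 and at 6.80, 5.82 and 6.61 in MCF10.AT1-R, overlapping between the lines. In 3 genes of this list, DOLK, DOLPP1 and DPAGT1, all resistant arrays were below the parental arrays, and in none were they above. Over all transcript probe sets they were below for 11.1% and above for 12.2%.

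HSD11B2, which protects the mineralocorticoid receptor from cortisol, was close to the background in both lines. It was measured at 3.23 and 3.79 in MCF10.AT1 and at 3.74, 3.37 and 4.10 in MCF10.AT1-R. The spread within each line, an SD of 0.40 and of 0.37, was larger than the change of 0.23, which had an interval from -0.38 to 0.84 and a limma adjusted p of 0.860. HSD11B1, the reductase that forms cortisol again, was within the background on all 5 arrays. The medium of MCF10A-type cells contains hydrocortisone, which is cortisol, so the genes that answer to it were listed as well. The glucocorticoid receptor gene NR3C1 was measured at 6.61 and 6.62 in MCF10.AT1 and at 6.54, 6.65 and 6.37 in MCF10.AT1-R, and these values overlapped. Its change without filters was -0.09.

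Among 12 glucocorticoid receptor target genes, 2 fell, none rose and 9 were tested. The resistant arrays were below the parental arrays for 8 of the 12 and above for none, with a median change of -0.62. Over all transcript probe sets they were below for 11.1%, and for 13.8% of those tested. ZBTB16, a transcription factor, was measured at 5.02 and 4.87 in MCF10.AT1 and at 3.68, 3.76 and 3.46 in MCF10.AT1-R. All resistant arrays were lower by more than a log2 unit, with a change of -1.31 and a limma adjusted p of 0.00436. That call was lost with the low-expression filter alone (limma adjusted p 0.0604), with no filter (0.0740) and with A03 added (0.777). It was also lost without A01 or without A02, each of which leaves 1 MCF10.AT1 array. PDK4, a kinase that shuts down pyruvate dehydrogenase, was measured at 4.15 and 3.97 in MCF10.AT1 and at 1.87, 1.83 and 2.09 in MCF10.AT1-R. It was within the background on every resistant array and at least 2.10-fold lower there than in MCF10.AT1. The limma adjusted p was 5.47e-09 on the values as deposited and 0.0339 with values raised to the background. FKBP5, a chaperone partner of the receptor, was at 8.82 on both parental arrays and at 7.87, 7.77 and 7.87 on the resistant arrays. Its replicates were close, and its change of -0.98 had a limma adjusted p of 0.101 under the common SD. With no filter, where the spread of a gene's own arrays enters, the limma adjusted p was 0.174. TSC22D3 (GILZ) had a change of -0.75 with a limma adjusted p of 0.381. MT2A, a metallothionein, did not move apart, with 12.06 and 12.12 in MCF10.AT1 and 12.07, 12.08 and 12.17 in MCF10.AT1-R.

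**Figure D3:**
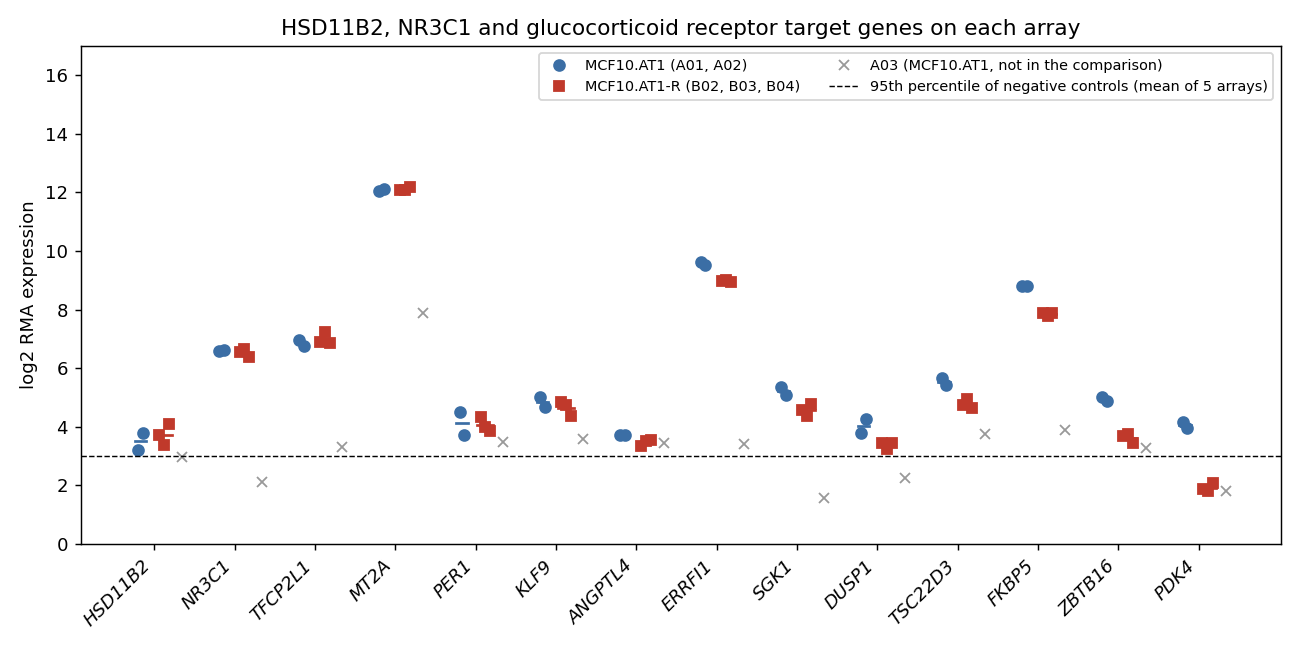
Log2 RMA expression (vertical axis) of HSD11B2, the receptor gene NR3C1 and 12 glucocorticoid receptor target genes (horizontal axis, in order of change), on each array. Circles are MCF10.AT1, squares MCF10.AT1-R, crosses A03 and the dashed line the background of 2.99. The squares lie below the circles for 8 of the 12 target genes, against 11.1% of all transcript probe sets. The squares of HSD11B2 and NR3C1 are mixed with the circles.

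HSD17B12 had the largest change of the 10 genes. It was measured at 6.40 and 6.19 in MCF10.AT1 and at 7.36, 7.12 and 6.96 in MCF10.AT1-R, so every resistant array was above both parental arrays by at least 0.56. The means were 6.30 ± 0.15 (SD, n = 2) and 7.15 ± 0.20 (SD, n = 3), a change of 0.85 or 1.80-fold with a 95% interval from 0.24 to 1.46. The limma adjusted p was 0.239. In absolute size this change was within the top 2.68% of all tested probe sets. The SDs of its own arrays were below the common SD of 0.34. With no filter, where the spread of a gene's own arrays enters, its limma adjusted p was 0.401. With the low-expression filter alone it was 0.264. With limma's trend option the SE was 0.18 and the adjusted p was 0.000378, and under that option 2.68% of the tested probe sets passed, and 1.69% passed with the resistant line higher. The call of HSD17B12 therefore depended on the variance model. With centring on the hybridization controls its change was 0.41, with a limma adjusted p of 0.477.

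The elongation cycle in which HSD17B12 acts was followed with 14 other genes, of which 8 were tested. ELOVL4, the elongase for very long chains, was the only one to rise, at 3.42 and 4.01 in MCF10.AT1 and at 5.12, 4.49 and 5.58 in MCF10.AT1-R. The lines did not overlap, although both spread widely, and the change was 1.35 with a limma adjusted p of 0.00259. That call was lost without A01, at an adjusted p of 0.455, without B04, at 0.106, and with centring on the hybridization controls, at 0.314. It was also lost with values raised to the background (0.237), with the low-expression filter alone (0.324), with no filter (0.412) and with no filter and the trend option (0.0657). ELOVL7 was measured at 3.65 and 3.91 in MCF10.AT1 and at 4.93, 4.90 and 4.35 in MCF10.AT1-R, a change of 0.95 with a limma adjusted p of 0.128. HACD2, a dehydratase of the cycle, was at 10.08 and 10.15 in MCF10.AT1 and at 10.78, 10.77 and 10.69 in MCF10.AT1-R, a change of 0.63 with a limma adjusted p of 0.574. The resistant arrays lay above the parental arrays for 7 of the 14 genes, ELOVL4, ELOVL7, HACD2, ELOVL6, ACACA, HACD1 and TECR, and below them for none. Over all transcript probe sets they were above for 12.2%, and for 12.9% of those tested. For TECR, the last reductase of the cycle, the change was only 0.21. The median change of the list was 0.25 with the deposited scaling. Centring on the hybridization controls moved the median of all transcripts to -0.43.

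**Figure D4:**
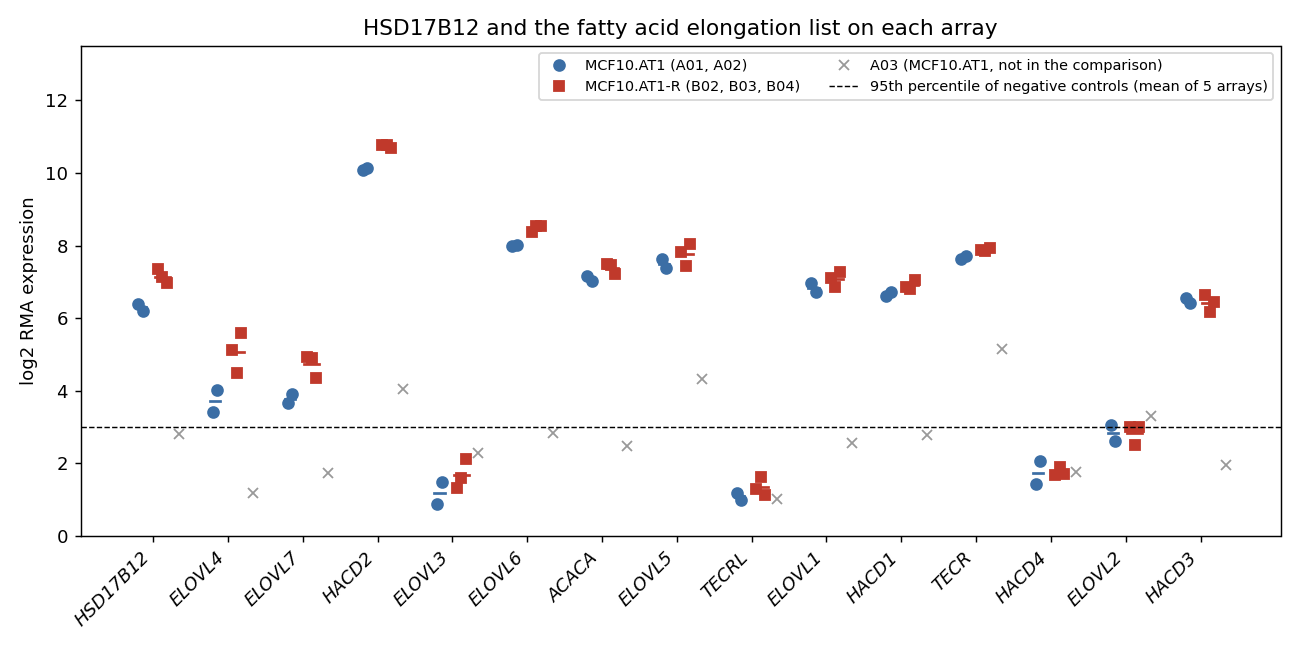
Log2 RMA expression (vertical axis) of HSD17B12 and 14 genes of very long chain fatty acid elongation (horizontal axis, in order of change) on each array. Circles are MCF10.AT1, squares MCF10.AT1-R, crosses A03 and the dashed line the background of 2.99. Besides HSD17B12, the squares are above the circles for 7 genes and below them for none, against 12.2% and 11.1% of all transcript probe sets.

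HSD17B4 was measured at 6.77 and 6.56 in MCF10.AT1 and at 6.83, 6.64 and 6.55 in MCF10.AT1-R. The arrays of the lines were mixed, and the gene was outside the filter on invariant probe sets. Its change without filters was 0.01 with an interval from -0.44 to 0.46. Of 14 other genes of peroxisomal beta oxidation 8 were tested and none passed. The resistant arrays were above for 4 and below for 3, against 12.2% and 11.1% of all transcript probe sets. Among the 4 genes above were SCP2, the thiolase of branched chains and sterol side chains, and ACAA1, the straight-chain thiolase. SCP2 was at 6.80 and 6.53 in MCF10.AT1 and at 7.03, 6.99 and 7.21 in MCF10.AT1-R. ACAA1 had a change of 0.25. CROT, which prepares shortened chains for export, had the list's highest change, 0.79 with a limma adjusted p of 0.320, and its resistant arrays spread from 2.88 to 4.70.

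HSD17B8 was measured at 4.43 and 4.80 in MCF10.AT1 and at 4.74, 4.44 and 4.72 in MCF10.AT1-R. The lines covered the same range, and the change without filters was 0.02 with an interval from -0.46 to 0.50. Its partner subunit CBR4 was at 6.03 and 5.74 in MCF10.AT1 and at 5.85, 5.85 and 5.93 in MCF10.AT1-R, also overlapping. None of the 7 measured genes of mitochondrial fatty acid synthesis passed the test, 4 having been tested, and the arrays of the lines overlapped for all 7. The enoyl reductase MECR had the lowest change of the list, -0.19 with a limma adjusted p of 0.885.

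HSD17B11 was measured at 6.10 and 5.92 in MCF10.AT1 and at 5.91, 5.81 and 5.52 in MCF10.AT1-R. It was the 1 gene of the 10 whose resistant arrays were all lower, but A02 and B02 were only 0.012 apart. The change was -0.27 with an interval from -0.88 to 0.34 and a limma adjusted p of 0.845. Among 9 lipid droplet genes 6 were tested and 2 fell. METTL7B, a droplet-associated methyltransferase, was at 4.34 and 3.99 in MCF10.AT1 and at 2.49, 2.03 and 2.79 in MCF10.AT1-R. The resistant arrays were within the background and at least 2.26-fold lower. The limma adjusted p was 1.07e-05 on the values as deposited and 0.0519, no longer past the threshold, with values raised to the background. That call was also lost with the low-expression filter alone (0.0731) and with no filter (0.0740). CIDEC, a droplet fusion protein, was at 3.20 and 3.16 in MCF10.AT1 and at 2.27, 1.40 and 1.89 in MCF10.AT1-R. Its limma adjusted p was 0.00335, but both lines were close to the background. With values raised to the background the change was -0.19, with an adjusted p of 0.428. The adjusted p was 0.181 with the low-expression filter alone and 0.224 with no filter. The call was also lost without A01 (adjusted p 0.142), A02 (0.133) or B03 (0.0609). The droplet coat gene PLIN3 overlapped between the lines, with a change of -0.05.

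**Figure D5:**
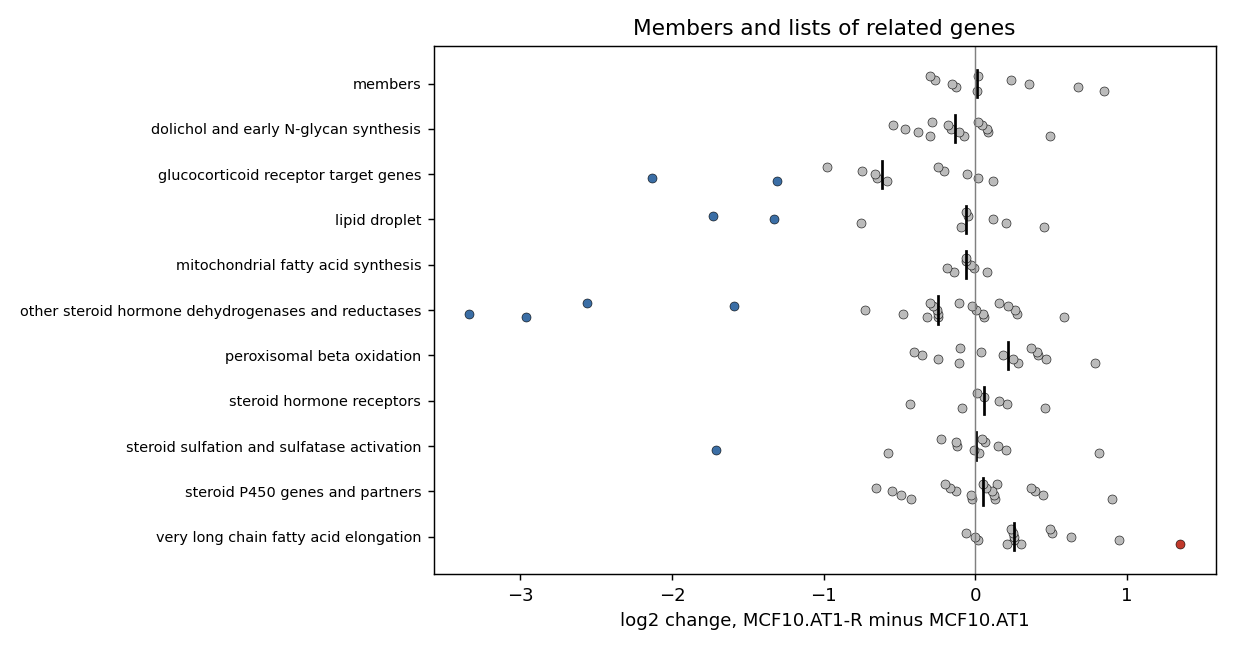
Change between the lines (horizontal axis, log2, MCF10.AT1-R minus MCF10.AT1) of each gene of the 10 enzymes and of 10 lists of related genes (vertical axis), with short vertical bars at the medians. Blue points fell, the red point rose and grey points did not pass the test at FDR 5%. The largest falls are AKR1C2, AKR1C1 and AKR1C3 among the other steroid dehydrogenases, and the one rise is ELOVL4.

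The promoter of HSD17B11 is shown because its resistant arrays were all lower, the only case among the 10 genes, and it carries a CCAAT box close to the start site. The nearest arrays of the lines were only 0.012 apart, and the limma adjusted p was 0.845. A link between the box and that difference was not tested. RefSeq windows of 250 bases before to 50 after the start, on GRCh38.p14, matched 6 of the 10 genes (HSD17B4, HSD17B8, HSD17B11, SRD5A1, SRD5A3 and STS), with 10 windows in all, 5 of them for STS. The window of HSD17B11 lies on the minus strand at chr4:87391139-87391438, and the capitals mark CCAAT, 73 bases before the start.
HSD17B11 promoter: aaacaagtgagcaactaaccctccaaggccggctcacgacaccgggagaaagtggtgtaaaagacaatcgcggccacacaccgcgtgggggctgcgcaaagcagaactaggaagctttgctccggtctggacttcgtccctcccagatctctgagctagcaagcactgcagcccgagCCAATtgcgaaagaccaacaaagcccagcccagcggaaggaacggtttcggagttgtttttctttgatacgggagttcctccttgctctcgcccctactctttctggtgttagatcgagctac
On both strands, CCAAT was in 3 of the 10 windows, those of HSD17B11, HSD17B8 and STS, and in 34.6% of all 35116 RefSeq windows. The sterol regulatory element TCACNCCAC was in none of the 10 and in 1.13% of all windows. The E-box CACGTG was in 1 window, that of SRD5A3, and in 7.26% of all windows. The GC box GGGCGG was in 5 of the 10 windows and in 44.95% of all. AGAACA, a glucocorticoid receptor core site, was in 2 windows of STS and in 14.8% of all. A match only describes the letters of the window.

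Apart from the 10 genes, 22 other steroid hormone dehydrogenases and reductases were on the array, of which 14 were tested, 4 fell and none rose. The aldo-keto reductases AKR1C1, AKR1C2 and AKR1C3, which reduce progesterone, androgens and prostaglandins, all fell. AKR1C3, which makes testosterone from androstenedione, was measured at 9.55 and 9.53 in MCF10.AT1 and at 7.14, 6.73 and 7.06 in MCF10.AT1-R. Its change was -2.56 with a limma adjusted p of 2.27e-13. AKR1C1 and AKR1C2 had changes of -2.96 and -3.34, and these near-identical paralogs can share probe signal. DHRS9, a retinol and steroid dehydrogenase, was at 4.88 and 4.73 in MCF10.AT1 and at 3.62, 3.10 and 2.93 in MCF10.AT1-R. Its change was -1.59 with a limma adjusted p of 9.11e-05. That call was lost with values raised to the background (0.0827), with the low-expression filter alone (0.0780) and with no filter (0.0832). HSD17B7, which also serves cholesterol synthesis, was at 5.90 and 5.98 in MCF10.AT1 and at 6.50, 6.50 and 6.57 in MCF10.AT1-R. Its arrays were well apart, but the change of 0.58 had a limma adjusted p of 0.643. Of 19 steroid P450 genes and partners 13 were tested and none passed. CYP19A1, the aromatase, was within the background on every array, and CYP11B2 had the lowest change, -0.65 with a limma adjusted p of 0.534. The highest change of that list was 0.90. Over all 10 lists, 83 of 130 genes were tested and 10 passed, of which AKR1C1, AKR1C2, AKR1C3 and PDK4 also passed with the low-expression filter alone.

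A03 stood apart from the other arrays over all transcripts. Its correlation with them was 0.779 to 0.795, its hybridization controls averaged 5.99 against 10.35 to 11.33, and its background level was 3.15. Of the 10 genes 8 were below that level on A03, and HSD17B2 at 3.52 and HSD17B8 at 4.66 were above it. HSD17B8 was the one gene at its parental level there, 0.05 above the mean of A01 and A02. The A03 value minus that mean was -4.71 for SRD5A3, -3.85 for HSD17B4 and -3.48 for HSD17B12. Other transcripts at the same parental level as each of these were also lower on A03, with median differences of -3.69, -2.49 and -1.91. Of them 30.5%, 28.0% and 26.7% were lower still. For HSD17B11 the difference was -3.34 and that median -1.14. At the level of HSD17B1, HSD17B2, HSD17B8, HSD11B2, SRD5A1 and STS the medians were positive, from 0.38 to 0.42. Against them SRD5A1 was at -2.90, with 2.99% of such transcripts lower still, and HSD17B1 at -0.96, with 13.0% lower. Counted as a parental array, A03 would leave HSD17B12, HSD17B1 and HSD17B2 with all resistant arrays above and would remove the separation of HSD17B11.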

How the data were processed

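Total RNA of MCF10.AT1 and MCF10.AT1-R was hybridised to 6 Clariom D arrays. The authors deposited log2 expression values made by RMA, that is background correction, quantile normalization and summarisation of probes, for all 6 arrays and before any filter. The scanner intensities and the genome build behind the probe sets were not used here. Array names carry a letter and a number, but no cell line and no replicate number of the labels. The A arrays were taken as MCF10.AT1 and the B arrays as MCF10.AT1-R. This was inferred here, and the direction of every change rests on it. A03, which the study removed, was left out of the comparison.

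Of 138745 probe sets, 2995 are controls. Testing was limited to transcript probe sets with a 5-array mean over the median of all (1.88) and an SD over the lowest 25% (0.18). These limits were chosen here. The lines were compared by limma (version 3.58.1, R 4.3.3; lmFit, eBayes), two-sided, with Benjamini-Hochberg adjustment over all 51457 tested probe sets at FDR 5%, after the script was tested on simulated data. Genes outside the filters take their change and interval from the same fit without filters. Per gene, the probe set with the highest mean over the 5 arrays was used. A fold called "at least" raises values to the mean 95th percentile of the negative controls (2.99).

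The 10 genes and all lists were chosen with earlier results of these data known. Named by rule are the 10 genes and, of each list, the genes that passed the test or, where none did, the 1 with the largest change above the negative controls. All other list genes given by name were chosen after their values were seen, for their role beside one of the 10 enzymes or for how their arrays lay. The low-expression filter with the trend option was added as an alternative after seeing the data. In the main fit limma used 1 common SD for all tested probe sets. A p-value there follows the size of the change, and not the spread of a gene's own arrays. With no filter that spread enters, and the limma adjusted p of AKR1C3 was 0.00339 against 2.27e-13. All arrays come from 1 selected line and its parent, and their number limits the precision. A few list genes enter the counts but are not reported here by name.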

Additional observations from a re-analysis of the deposited data

How the results depend on the processing

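Counts of calls depended on the filters, the variance model, the arrays and the scaling. The 620 probe sets that passed became 182 with the low-expression filter alone and 177 with no filter. They became 1377 with the trend option, and 1086 with the low-expression filter alone and the trend option, an alternative added after seeing the data. Adding A03 left 26, array weights over 6 arrays gave 1744, centring on the hybridization controls gave 308 (79 higher), raising values to the background gave 243 and an FDR of 1% gave 386. Leaving out 1 array gave 271 to 595. No enzyme passed without any 1 array, from 0 to 0, and 1, HSD17B12, passed with the trend option (with both filters, with no filter, or with the low-expression filter alone) and with array weights, at adjusted p from 0.000378 to 0.0400. Over all alternatives with 5 or fewer arrays and over array weights, its adjusted p ran from 0.000378 to 0.942. HSD17B12 and HSD17B1 kept a positive change under all 17 alternatives, at their lowest with centring on the hybridization controls, 0.41 and 0.23. Of the list genes, 10 of which passed, 4 passed with the low-expression filter alone, AKR1C1, AKR1C2, AKR1C3 and PDK4, and 4 with no filter. With the trend option 17 passed, with A03 added 0, and without 1 array 7 to 10.

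Directions turned for genes with small changes. With A03 added, the change was 0.85 for HSD17B11, 0.84 for SRD5A1, 1.42 for SRD5A3 and 0.24 for STS. With array weights HSD17B8 was at -0.087, and with quantile normalization repeated HSD17B4 was at -0.017. Centring on hybridization controls shifted the median of all transcripts to -0.43, and put HSD17B2 at -0.090, HSD17B4 at -0.43, HSD17B8 at -0.43 and HSD11B2 at -0.21, all 4 at or above that median. Without 1 array the change ran from -0.17 to 0.20 for HSD17B8, from -0.048 to 0.51 for HSD11B2 and from -0.10 to 0.12 for HSD17B4, and from -0.46 without A02 to -0.14 without A01 for STS. The cause of these turns was not tested. No paired analysis was possible because the array names carry no replicate number of the labels. Other probe sets per gene could not be tried, since each enzyme has 1. Values near the negative controls, such as those of HSD11B2, are limited by signal over background.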
